A study of Oryza sativa with 20 samples.

Results

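Roots of 2 rice cultivars, Niyan Wee and Sarali, were compared across all measured genes. The members were the 4 libraries titled NiyanWee and the 4 titled Sarali, 8 of the 20 libraries of a series that also holds 4 each of Moddai Karuppan, Bala and Azucena. All 8 were root samples of the plain cultivar, and the labels give no treatment, age, growth condition or allele for either. The series was titled for aquaporins, the channels for water, in rice of the Indica II group from Sri Lanka. Nothing in the labels says that the 4 libraries of a cultivar came from separate plants. P-values thus measure the spread between libraries of a cultivar, which may be technical. For the main gene tests that spread was estimated from all 20 libraries of the series.

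Rice roots take up water and mineral nutrients through several cell layers, of which the endodermis and exodermis carry Casparian strips that seal the space between cells. Cultivars can differ in how strongly a gene is transcribed and also in which genes and gene copies their genomes carry. Reads of both cultivars were counted against a single reference, IRGSP-1.0 per the submitters' processing notes. A gene that is missing from a cultivar, differs from the reference in sequence or is not transcribed gives the same low count, and these cannot be told apart here. In bulk tissue, fewer cells of a type and less RNA per cell cannot be told apart either.

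The 8 libraries held 25590249 to 29613318 counts. Ribosomal RNA genes took 4.07%, 44.0%, 19.8% and 56.2% of them in Niyan Wee replicates 1 to 4, and 30.9%, 64.5%, 62.2% and 54.0% in Sarali. The mean share was 31.0% ± 23.5 in Niyan Wee and 52.9% ± 15.4 in Sarali (SD, n = 4 each), a difference of −21.9 percentage points that did not pass an exact permutation test (two-sided, p = 0.2, 70 arrangements, smallest possible p = 0.0286). The difference was −23.6 points among the libraries whose labels end in P1 (replicates 1 and 2) and −20.1 among those ending in P2 (replicates 3 and 4). Root markers were present in both cultivars. The silicon influx channel gene NIP2-1 and the root patterning gene SHR1 summed to 114 to 332 CPM (counts scaled to library size by edgeR's TMM method) in Niyan Wee and 104 to 271 in Sarali, and RBCS, the small subunit of the leaf enzyme Rubisco, lay between 0.880 and 3.11 CPM in all 8 libraries.

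Replicates of a cultivar were not alike in which genes they held. In Niyan Wee, 37 genes had at most 1 count in some libraries and at least 50 in each of the others. Of these, 20 were present in replicates 1 and 2 alone and 11 in replicates 3 and 4 alone. In Sarali there were 24 such genes, 15 present in replicates 1 and 4 alone and 8 in replicates 2 and 3 alone. The 31 Niyan Wee genes followed the P1 and P2 labels and the 23 Sarali genes crossed them. Of the 13 Sarali genes in these patterns with a locus identifier, 8 lay on chromosome 11, as did 4 of the 21 Niyan Wee genes, against 5.42% of all tested genes with an identifier. These counts share 3 genes, LOC4349862, LOC9270334 and LOC9267983, which were in both sets, so they are not separate observations. Between the cultivars, 6 of the 37 (16.2%) and 8 of the 24 (33.3%) were called, against 2.88% of all genes tested. The genes were picked by their counts in the libraries compared, so these shares describe and do not test. The labels do not say how the libraries of a cultivar differ, and the part of these splits in the results was tested only by leaving libraries out.

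Of 21225 genes tested, 611 differed between Niyan Wee and Sarali at an adjusted p below 0.05, which is 2.88% of them. In Niyan Wee, 315 were higher (1.48% of genes tested) and 296 were lower (1.39%). Before adjustment, 2928 genes had a p below 0.05. The differences were often large: 486 of the called genes exceeded 1 on the log2 scale and 257 exceeded 3. Genes averaging under 10 CPM over the cultivars were called more often, at 3.59% with a median absolute log2 fold change of 3.54, than genes at or above that level, at 1.99% and 0.98. Long noncoding RNA genes were called in 79 of 1043 cases (7.57%), pseudogenes in 25 of 302 (8.28%) and protein-coding genes in 478 of 19269 (2.48%). In 528 of the 611 called genes the 4 libraries of one cultivar lay wholly above the 4 of the other, as they did in 1663 of all genes tested (7.84%).

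**Figure D1:**
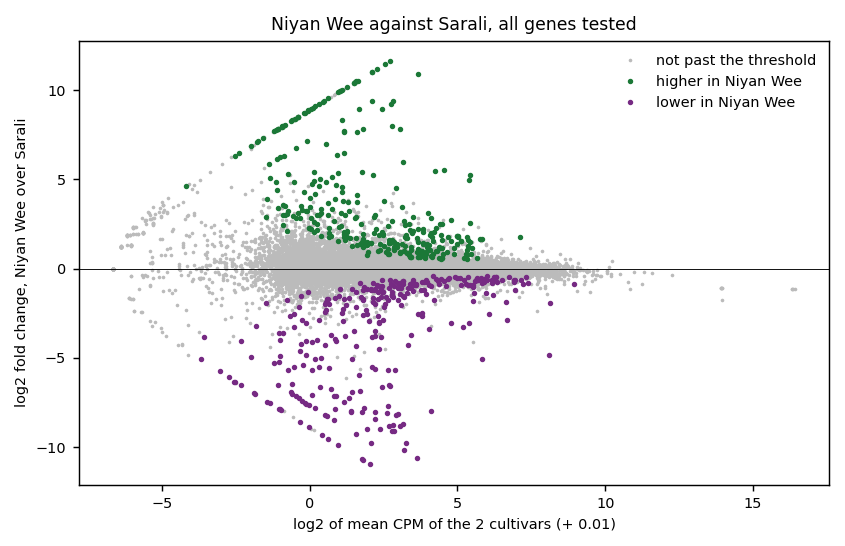
Log2 fold change of Niyan Wee over Sarali (vertical) against the log2 of the mean CPM of both cultivars (horizontal) for 21225 genes. Points in colour are the 315 genes higher and 296 lower in Niyan Wee at an adjusted p below 0.05; the straight outer edges are genes with almost no counts in one cultivar, whose plotted fold depends on the prior count.

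The calls depended on single libraries for many genes. Of the 611, 334 stayed called in the same direction without each of the 8 libraries in turn, 150 higher and 184 lower in Niyan Wee. The direction was the same in P1 alone and P2 alone for 606, and 113 passed in P1 alone and again in P2 alone. Without Niyan Wee replicate 2 there were 421 genes higher in Niyan Wee, and without Sarali replicate 4 there were 177. A model that added each library's ribosomal RNA share called 379.

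The strongest contrasts were genes found in one cultivar and nearly absent from the other. By a rule chosen after the values were seen (at least 10 counts in each of 4 libraries against at most 3 counts over the other 4), 54 genes were detected in Niyan Wee and near-absent in Sarali, 36 of them with no count there. In the other direction there were 33, of which 11 had no count in Niyan Wee. The limits are raw counts, and 3 counts over the 4 libraries equal 0.0269 CPM in Sarali and 0.0174 in Niyan Wee. The directions are thus not on equal terms, also for genes with no count. Of the 54, 53 were called, and of the 33, 32 were called. The rule itself fixes that such genes differ, so these counts describe and do not test. None of the 87 carries a gene name in the reference table. Of the 54, 31 are protein-coding and 16 are long noncoding RNA genes, and of the 33, 18 and 12.

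The other cultivars divided these genes in different ways. Of the 54 genes near-absent in Sarali, Moddai Karuppan had 15 detected and 24 near-absent by the same limits, Bala 15 and 22, and Azucena 30 and 3. Of the 33 near-absent in Niyan Wee, Moddai Karuppan had 16 detected and 10 near-absent, Bala 9 and 18, and Azucena 19 and 7. All 3 of these cultivars held 6 of the 54 and 5 of the 33, while 3 of the 54 and 1 of the 33 were near-absent from all of them. Most of the genes were thus present in some of the other cultivars and not in all. Bala replicate 4 held the fewest counts outside ribosomal RNA (3813600), so limits in raw counts are harder to reach in Bala.

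**Figure D2:**
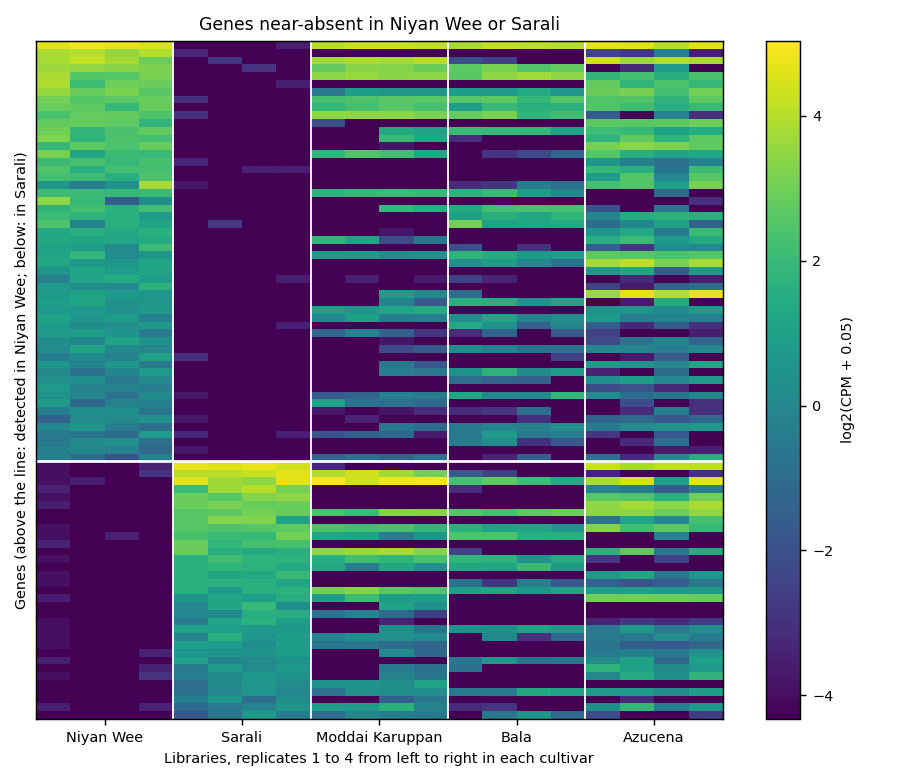
Log2(CPM + 0.05) in each of the 20 libraries (columns, 4 per cultivar) of the 54 genes detected in Niyan Wee and near-absent in Sarali (above the line) and the 33 in the other direction (below it). Moddai Karuppan, Bala and Azucena each hold a different subset, and several genes are present in only some Moddai Karuppan libraries.

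LOC4342242 (LOC_Os07g02250, chromosome 7) had the lowest log2 fold change of the unnamed called genes without overlap and with at least 5 CPM in Sarali. It had no count in the 4 Niyan Wee libraries, and 5.96, 6.43, 8.40 and 6.96 CPM in Sarali replicates 1 to 4. Against a floor of 3 counts over the 4 Niyan Wee libraries, Sarali was at least 399-fold higher (edgeR quasi-likelihood test, adjusted p = 3.81e-09). LOC107275953 also had no count in Niyan Wee and 6.03, 9.69, 9.44 and 2.09 CPM in Sarali, at least 392.2-fold higher (adjusted p = 0.000972). Both stayed called without each library. The first was present in all of the other cultivars, with means of 7.19, 6.16 and 10.1 CPM in Moddai Karuppan, Bala and Azucena, and the second only in Azucena, with a mean of 2.14 CPM.

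The unnamed genes with the highest fold change in the opposite direction rested on half-present genes. LOC9268385 (LOC_Os08g08690, chromosome 8) stood at 0.0155, 0.0314, 25.3 and 21.5 CPM in Niyan Wee replicates 1 to 4 and had no count in Sarali. LOC4329504 stood at 0.0309, 0.0629, 17.2 and 21.6 CPM, again with no count in Sarali. In each, replicates 3 and 4 alone carried the gene. Taking the mean of all 4 Niyan Wee libraries against the floor, they were at least 436-fold and 363-fold higher (edgeR, adjusted p = 0.0169 and 0.0427). The call of LOC9268385 ended without Sarali replicate 1 (0.0516) and with the replicate block (0.0591), and that of LOC4329504 without Niyan Wee replicates 3 or 4 or any Sarali library (0.0769 to 0.105).

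Called genes lay together on the chromosomes. Taking chromosomes from the locus identifiers, 5.73% of tested genes were called on chromosome 11 (59 of 1030) and 4.54% on chromosome 9 (47 of 1035), against 2.23% on the other 10 chromosomes and 2.54% over all genes with an identifier. Chromosome 2 had the lowest share, 1.26%. On chromosome 8, 18 called genes were higher and 2 lower in Niyan Wee, and on chromosome 7, 9 were higher and 31 lower. In the gene order of the reference assembly, 198 of the 1182 positions next to a called gene held a called gene (16.8%), against 2.88% of all genes. In 158 of these 198 the direction was the same. Each adjacent called pair counts from both sides here. Of 591 called genes with a place in the order, 169 (28.6%) lay next to another. Adjacent genes can share reads where they overlap or are copies, so they are not independent.

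**Figure D3:**
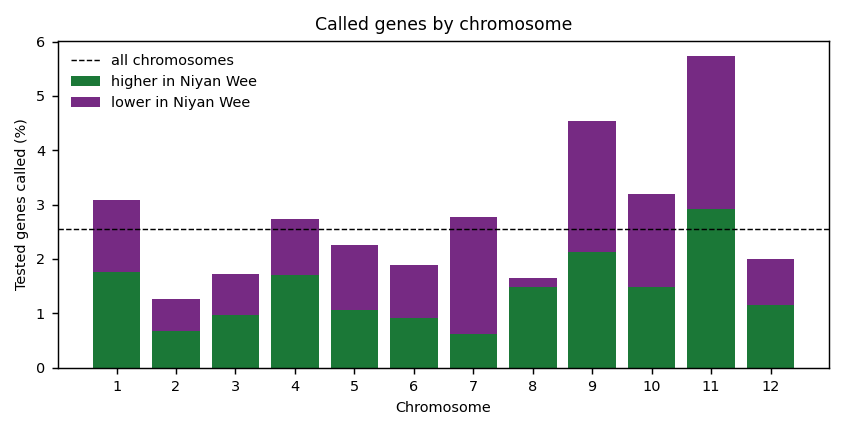
Percent of tested genes called on each of the 12 chromosomes (bars, from 0), divided into higher and lower in Niyan Wee; the dashed line is the 2.54% over all genes with a locus identifier. Chromosomes 11 and 9 stand highest at 5.73% and 4.54%, and chromosome 2 lowest at 1.26%.

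There were 19 runs of 3 or more called genes adjacent among tested genes, 67 genes in all, of which 2 overlap a neighbour by reference position. LOC4352609 and LOC4352610, not marked as overlapping, had nearly equal means (83.2 and 80.7 CPM in Niyan Wee, 2.17 and 2.58 in Sarali). Whether such genes share reads was not tested. Of the 19 runs, 11 had a single direction, 6 lay on chromosome 11 and 5 on chromosome 9. The longest held 5 genes, and 3 runs reached that length. These were singled out after their values were seen.

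On chromosome 11, LOC4350994, LOC4350996, LOC4350997, LOC4350998 and LOC4351001 were all higher in Niyan Wee. LOC4350996 stood at 24.8, 27.9, 26.3 and 22.5 CPM in Niyan Wee replicates 1 to 4 and at 0, 0, 0 and 0.0366 in Sarali. LOC4350998 stood at 11.9, 7.23, 8.92 and 6.23 CPM in Niyan Wee and had no count in Sarali. Every library of the first 4 genes in Niyan Wee exceeded every Sarali library, and Sarali held 1 count of them in all. LOC4350996 was 2847-fold higher by its counts (95% counting interval 511 to 112500, adjusted p = 8.45e-14), and LOC4350998 at least 319-fold higher (1.92e-08). The fifth gene, LOC4351001, was present in both, with a mean of 3.68 CPM in Niyan Wee and 1.06 in Sarali (log2 fold change 1.79, adjusted p = 0.00678), and had no count in Moddai Karuppan or Bala. All 5 calls held without each library.

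On chromosome 9, LOC9268191, LOC4346688, LOC4346689, LOC107277824 and LOC4346690 were all lower in Niyan Wee. LOC4346689 stood at 0.0155, 0, 0 and 0.0825 CPM in Niyan Wee and 16.3, 17.0, 19.0 and 24.7 in Sarali, a ratio of 1095 (95% counting interval 374 to 5314, adjusted p = 6.9e-09). Its means were 14.2 CPM in Moddai Karuppan, 0.0974 in Bala and 0.0283 in Azucena. The first 4 genes of this run had means of 0.475 to 14.2 CPM in Moddai Karuppan and at most 0.133 in Bala and Azucena. LOC4346690 was the exception in size, with a log2 fold change of −2.33 (adjusted p = 0.0168), and its call ended without Niyan Wee replicate 3 (0.0643) or Sarali replicate 4 (0.0602). On chromosome 10, LOC9270570, LOC4348043, LOC4348044, LOC4348045 and LOC4348051 were likewise lower in Niyan Wee. LOC4348043 stood at 0.356, 0.0314, 0 and 0.0412 CPM there against 44.6, 31.2, 25.7 and 34.6 in Sarali (adjusted p = 0.000833). The last of the run, LOC4348051, had the smallest difference (−1.99, adjusted p = 0.0361), and its call ended without Niyan Wee replicates 2, 3 or 4 or Sarali replicates 1, 2 or 4 (0.0584 to 0.139).

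Few genes with a name differed. Of 2346 tested genes that carry a name, 41 were called (1.75%), 25 higher and 16 lower in Niyan Wee. Many of those described below were taken by a rule that admitted only called genes whose libraries did not overlap between the cultivars. Their lack of overlap is therefore no separate support, and 528 of all 611 called genes shared it. Most of the 41 differed by less than the genes described so far, and the following kept their calls without each of the 8 libraries.

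PPDKB (LOC_Os05g33570), a pyruvate phosphate dikinase that links pyruvate and phosphoenolpyruvate, was 3.21-fold higher in Niyan Wee. It stood at 106, 61.9, 80.0 and 104 CPM in Niyan Wee replicates 1 to 4 and at 38.4, 32.8, 14.6 and 23.5 in Sarali. The lowest Niyan Wee library lay above the highest Sarali library. The log2 fold change was 1.68 ± 0.227 (SE; edgeR, adjusted p = 0.000111), with a value of 1.23 in P1 alone (0.0539) and 2.26 in P2 alone (0.00504). PPDKB was also the only called member of the 2 measured leaf markers. The other, RBCS, did not pass (adjusted p = 0.756). The summed leaf marker level, 62.8 to 107 CPM in Niyan Wee and 16.3 to 41.5 in Sarali, was nearly all PPDKB.

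Of 32 cellulose synthases and relatives, 3 were higher in Niyan Wee and 29 did not pass, against 2.88% of all genes called. CSLA1 (LOC_Os02g09930), of the family that makes mannan backbones, stood at 47.1, 53.6, 56.1 and 45.3 CPM in Niyan Wee and 28.1, 25.2, 33.7 and 33.7 in Sarali. Its log2 fold change was 0.75 ± 0.148 (adjusted p = 0.0067). CSLA3 (LOC_Os06g12460), of the same family, stood at 3.65, 2.55, 2.54 and 4.62 CPM against 0.847, 0.979, 0.374 and 0.403, with a log2 fold change of 2.35 ± 0.494 (adjusted p = 0.0101). Neither overlapped between the cultivars. CSLC7, of the family that makes the xyloglucan backbone, averaged 18.0 ± 3.62 against 12.0 ± 1.01 CPM (SD, n = 4 each; log2 fold change 0.59, adjusted p = 0.0289), but its call ended without Niyan Wee replicate 1 or without Sarali replicates 2, 3 or 4 (0.066 to 0.126). The median log2 fold change of the 32 was 0.07, against 0.03 over all genes. CSLC3, among the 29, passed in P1 alone (0.0315) and without Sarali replicate 3 (0.033).

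ERG3, PCF2 and PEX11-1 were higher in Niyan Wee as well. ERG3 stood at 19.5, 36.4, 34.9 and 23.4 CPM against 10.3, 9.32, 17.5 and 13.2 in Sarali (log2 fold change 1.18 ± 0.257, adjusted p = 0.0123). PCF2 (LOC_Os08g43160), a TCP-type transcription factor, stood at 18.8, 18.0, 17.7 and 17.0 CPM against 10.5, 11.7, 8.15 and 9.12 (0.85 ± 0.163, adjusted p = 0.00468). The 4 Niyan Wee values of PCF2 were close together. PEX11-1, named after its values were seen and of a family that controls peroxisome number, averaged 0.975 ± 0.255 CPM in Niyan Wee and 0.0794 ± 0.0772 in Sarali, a log2 fold change of 3.54 that was 4.28 without Sarali replicate 4 (adjusted p = 0.00203). Its levels in Moddai Karuppan, Bala and Azucena were 1.35, 2.10 and 1.48 CPM, so Sarali was the low cultivar.

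Genes lower in Niyan Wee included a small RNA effector and a general transcription factor. AGO4B (LOC_Os04g06770), an Argonaute of RNA-directed DNA methylation, stood at 46.7, 47.3, 33.6 and 36.0 CPM in Niyan Wee and 59.5, 75.1, 92.6 and 63.3 in Sarali (log2 fold change −0.83 ± 0.166, adjusted p = 0.00718). It was the only one of 16 RNA silencing genes to pass in the model of all libraries, and the list's median was −0.07. DCL2A, of the same list, passed with the ribosomal RNA share in the model (−0.82, 0.0295) and with DESeq2 (0.0313). It also passed without Niyan Wee replicate 1 (0.0268) or Sarali replicate 3 (0.0342). TFIIAy (LOC_Os05g01710), the small subunit of the basal factor TFIIA whose xa5 allele gives resistance to bacterial blight, stood at 44.2, 65.4, 55.1 and 63.2 CPM against 98.9, 85.0, 86.5 and 78.2 (−0.61 ± 0.125, adjusted p = 0.00788). For AGO4B and TFIIAy every Niyan Wee library lay below every Sarali library.

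HAL3 (LOC_Os06g09910), of the family that decarboxylates phosphopantothenoylcysteine in coenzyme A synthesis, stood at 9.91, 16.2, 10.6 and 8.74 CPM against 21.7, 19.9, 18.9 and 26.5 (−0.94 ± 0.18, adjusted p = 0.00513). MUB4 (LOC_Os04g32270), a membrane-anchored ubiquitin-fold protein, stood at 42.2, 67.4, 60.4 and 68.7 CPM against 112, 93.7, 99.3 and 98.8 (−0.76 ± 0.151, adjusted p = 0.00653). HAL3 averaged 20.5, 19.2 and 19.6 CPM in Moddai Karuppan, Bala and Azucena, and MUB4 averaged 97.6, 68.5 and 55.9. HEMD, uroporphyrinogen III synthase of tetrapyrrole synthesis, averaged 5.83 ± 0.652 CPM in Niyan Wee against 10.5 ± 1.21 in Sarali (−0.84, adjusted p = 0.00797). NBP averaged 38.6 ± 5.84 and 60.8 ± 6.33 CPM (−0.66, adjusted p = 0.0098). SODCC.2, a cytosolic copper/zinc superoxide dismutase that removes superoxide, averaged 95.6 ± 17.0 and 149 ± 8.33 CPM (−0.64, adjusted p = 0.0114). It was the only one of 21 redox enzymes to pass in the model of all libraries. In other fits APX5 passed as higher in Niyan Wee, with DESeq2 (0.00781), in P2 alone (0.0156) and without Niyan Wee replicate 1 or 2 (0.0113 and 0.0293). CatB passed as lower without Niyan Wee replicate 4 (0.0301).

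Several of these calls ended in other fits. Fitted on the 8 libraries alone, the adjusted p of ERG3, CSLA1, HAL3, AGO4B, MUB4, NBP, SODCC.2 and TFIIAy was 0.0515 to 0.104, and it was 0.062 to 0.194 for ERG3, PCF2, CSLA1, CSLA3, AGO4B, SODCC.2 and RR25 when 3 libraries (Niyan Wee replicates 2 and 3, Sarali replicate 3) were left out. PPDKB and PEX11-1 passed in both of those fits. On counts thinned to equal depth HEMD did not pass (0.0606). With each library's ribosomal RNA share in the model, 13 of the 41 called named genes passed, namely PPDKB, ERG3, PCF2, CSLA1, CSLA3, PEX11-1, HAL3, HEMD, MUB4, TFIIAy, RR25, APG12 and CAX1b. The other 28, AGO4B (0.0684), NBP (0.0593) and SODCC.2 (0.0651) among them, had adjusted p from 0.0593 (NBP) to 0.402 (PP2C30) in that fit.

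**Figure D4:**
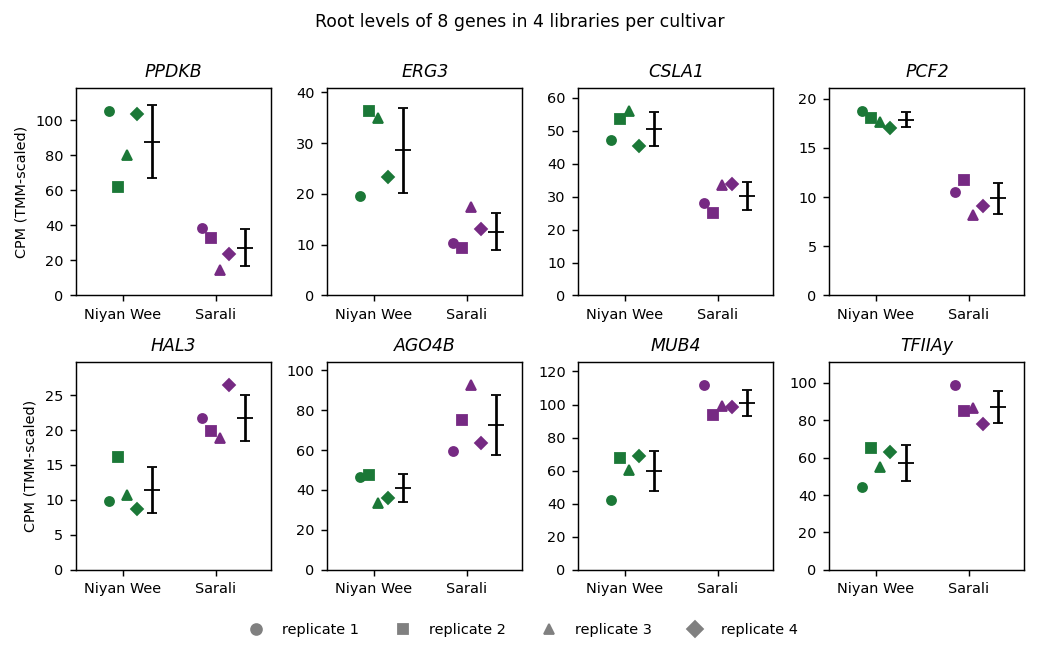
CPM of 8 genes in each library of Niyan Wee and Sarali (symbols mark the replicate), with the mean and SD of the 4 libraries in black. PPDKB, ERG3, CSLA1 and PCF2 lie wholly higher in Niyan Wee, and HAL3, AGO4B, MUB4 and TFIIAy wholly lower. All but TFIIAy were among genes taken by a rule that admits only genes without overlap.

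RR25 (LOC_Os06g43910), a type-B response regulator of cytokinin signalling singled out after its values were seen, was near-absent from 3 of the 4 Niyan Wee libraries. It stood at 0.247, 0, 0 and 0 CPM in Niyan Wee and 3.18, 2.66, 2.04 and 2.35 in Sarali (log2 fold change −4.98 ± 1.06, adjusted p = 0.0146). Its fold was set by replicate 1, without which Niyan Wee had no count (adjusted p = 0.0033). Moddai Karuppan averaged 2.21 CPM, Bala had no count and Azucena averaged 0.0828.

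The calls of the other named genes ended without at least 1 library. SPP1, sucrose-phosphate phosphatase of sucrose synthesis, averaged 7.55 ± 1.78 CPM in Niyan Wee against 13.6 ± 1.87 in Sarali (−0.85, adjusted p = 0.0109), and ended only without Niyan Wee replicate 3 (0.0502). SMOS1, an AP2-type factor of organ size, averaged 28.5 ± 4.23 and 54.1 ± 12.1 CPM (−0.92, adjusted p = 0.0155), and ended without Niyan Wee replicates 1 or 3 or Sarali replicates 3 or 4 (0.0522 to 0.0602). HEI10, a meiotic crossover protein named after its values were seen, averaged 3.47 ± 0.682 and 1.12 ± 0.709 CPM (1.61, adjusted p = 0.0184), and ended without Niyan Wee replicate 3 or Sarali replicate 4 (0.0557 and 0.0757). In all 3 the libraries of the cultivars did not overlap.

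SWEET13, a sugar efflux carrier, stood at 46.3, 55.1, 13.4 and 38.1 CPM in Niyan Wee and 13.0, 1.96, 6.24 and 5.50 in Sarali. The lowest Niyan Wee library was just above the highest Sarali library. The log2 fold change was 2.50 ± 0.637 (adjusted p = 0.0364), and the call ended without Niyan Wee replicates 1, 2 or 4 or Sarali replicates 2, 3 or 4 (0.0568 to 0.115). ARGOS, a promoter of organ growth in Arabidopsis, averaged 37.5 ± 6.36 against 21.6 ± 1.74 CPM (0.79, adjusted p = 0.025), and ended without Niyan Wee replicates 3 or 4 or any Sarali library (0.0533 to 0.0785). ASB1, the beta subunit of anthranilate synthase in tryptophan synthesis, averaged 12.5 ± 3.54 against 4.89 ± 1.66 CPM (1.36, adjusted p = 0.0297), and ended without Niyan Wee replicates 1 or 3 or Sarali replicates 1, 2 or 4 (0.0751 to 0.101). APG12, of the autophagy conjugation system, averaged 13.1 ± 2.00 against 8.26 ± 1.07 CPM (0.66, adjusted p = 0.0296), and ended without Niyan Wee replicates 2 or 4 or Sarali replicates 2 or 3 (0.0694 to 0.0921).

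Another 4 calls also ended without single libraries. CML27, a calmodulin-like protein, averaged 27.0 ± 5.19 CPM in Niyan Wee against 17.6 ± 2.50 in Sarali (0.62, adjusted p = 0.0364), and ended without Niyan Wee replicates 1 or 4 or Sarali replicates 2, 3 or 4 (0.0914 to 0.115). CIPK24, a kinase of the salt response, averaged 25.8 ± 4.64 and 37.2 ± 2.60 CPM (−0.53, adjusted p = 0.0396), and ended without Niyan Wee replicates 1, 2 or 3 or Sarali replicates 1, 3 or 4 (0.0702 to 0.149). UGD5, a UDP-glucose dehydrogenase that supplies wall sugars, averaged 44.5 ± 7.01 and 29.8 ± 3.48 CPM (0.58, adjusted p = 0.0422, 0.0668 with the replicate block), and ended without Niyan Wee replicates 2, 3 or 4 or Sarali replicates 1, 2 or 3 (0.0638 to 0.12). GME-2, a GDP-mannose epimerase of ascorbate and wall sugar synthesis, averaged 91.4 ± 17.8 and 153 ± 26.9 CPM (−0.74, adjusted p = 0.0287), and ended without Niyan Wee replicates 1, 2 or 3 or Sarali replicates 1 or 4 (0.0651 to 0.101).

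Of the remaining genes lower in Niyan Wee, OsC3H3 averaged 6.48 ± 1.61 and 10.9 ± 0.625 CPM (−0.75, adjusted p = 0.0222), and ended without Niyan Wee replicates 1 or 3 or Sarali replicates 1 or 4 (0.0589 to 0.0905). CPA averaged 66.1 ± 7.87 and 90.8 ± 2.13 CPM (−0.46, adjusted p = 0.0217), and ended without Niyan Wee replicate 3 or Sarali replicates 1, 2 or 4 (0.0501 to 0.0941). DI19, a zinc finger protein of the drought response, averaged 95.1 ± 16.1 and 147 ± 23.6 CPM (−0.63, adjusted p = 0.0313, 0.0597 with the replicate block), and ended without Niyan Wee replicates 3 or 4 or Sarali replicates 3 or 4 (0.087 to 0.118). IPK1, an inositol phosphate kinase of phytate synthesis, averaged 34.7 ± 3.60 and 48.1 ± 5.25 CPM (−0.47, adjusted p = 0.032, 0.0611 with the replicate block), and ended without Niyan Wee replicates 1, 2 or 3 or Sarali replicates 1, 3 or 4 (0.0539 to 0.101). None of these overlapped between the cultivars.

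Another 4 named genes, all with low levels and singled out after their values were seen, were higher in Niyan Wee. CYP734A6, a cytochrome P450 that inactivates brassinosteroids, averaged 4.90 ± 1.08 against 2.11 ± 0.632 CPM (1.21, adjusted p = 0.0201), and ended without Niyan Wee replicates 3 or 4 or Sarali replicates 1, 2 or 3 (0.0541 to 0.0697). CAX1b, a vacuolar calcium exchanger, averaged 2.55 ± 1.03 against 0.713 ± 0.356 CPM (1.84, adjusted p = 0.0219), and ended without Niyan Wee replicate 2 or Sarali replicates 1, 2 or 4 (0.0589 to 0.0787). OsICS, isochorismate synthase, averaged 0.847 ± 0.159 against 0.0808 ± 0.0949 CPM (3.42, adjusted p = 0.0287, and 4.33 without Sarali replicate 4), and ended without Niyan Wee replicates 1 or 3 or Sarali replicates 1 or 3 (0.0602 to 0.0792). ACA7, a calcium pump, averaged 0.875 ± 0.623 against 0.0404 ± 0.0303 CPM (4.42, adjusted p = 0.0292, 0.0597 with the replicate block), and ended without Niyan Wee replicates 1 or 3 or any Sarali library (0.053 to 0.0958).

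Among the genes higher in Niyan Wee, some libraries overlapped the other cultivar more often than others. Of the 315, 49 had Niyan Wee replicate 2 at or below the highest Sarali library, and in 45 of these it was the only Niyan Wee library to be so. The corresponding counts for replicates 1, 3 and 4 were 6, 7 and 9. On the other side, Sarali replicates 1 to 4 reached the lowest Niyan Wee library or more in 32, 46, 20 and 16 of the 315, and each alone in 7, 20, 6 and 3. JAZ10, PP2C32, MYB4 and CIGR2 were among the genes with Niyan Wee replicate 2 inside the Sarali range.

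The JAZ genes encode repressors of jasmonate signalling whose own transcripts rise when the hormone is present. JAZ10 (LOC_Os03g08330) stood at 52.0, 4.65, 31.0 and 33.8 CPM in Niyan Wee replicates 1 to 4 and at 5.19, 8.81, 0.998 and 2.20 in Sarali (log2 fold change 2.83 ± 0.741, adjusted p = 0.0427). JAZ9 stood at 7.27, 0.754, 4.10 and 4.12 CPM against 1.05, 0.653, 0 and 0.220 (3.03 ± 0.798, adjusted p = 0.0439). In both, 3 Niyan Wee libraries exceeded every Sarali library and replicate 2 lay within the Sarali range. Without replicate 2 the JAZ10 value was 3.18 (0.0134). The JAZ10 call ended without Niyan Wee replicates 1, 3 or 4 or Sarali replicates 1, 3 or 4 (0.0696 to 0.142), and that of JAZ9 without Niyan Wee replicates 1, 3 or 4 or Sarali replicates 2, 3 or 4 (0.0658 to 0.142). With the replicate block the adjusted p was 0.0987 for JAZ10 and 0.0744 for JAZ9. Without Sarali replicate 2 the JAZ10 value was 3.41, and without Sarali replicate 1 that of JAZ9 was 3.83.

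JAZ10 and JAZ9 were the only 2 of 11 measured JAZ genes to pass in the model of all libraries, in a list chosen after values were seen. The list's median log2 fold change was 1.06 against 0.03 over all genes. JAZ12 stood at 13.5, 1.63, 4.18 and 4.37 CPM in Niyan Wee, against 2.26, 0.979, 0.499 and 1.14 in Sarali (adjusted p = 0.113). JAZ13 stood at 8.80, 0.189, 5.95 and 5.40 CPM against 1.10, 0.746, 0.166 and 0.0733 (0.173). As in JAZ10, replicate 1 was the highest and replicate 2 the lowest of the Niyan Wee libraries. JAZ9, JAZ10 and JAZ11 are neighbours, as are JAZ12 and JAZ13, and related copies can share reads. JAZ1, JAZ3, JAZ4, JAZ7 and JAZ8 had values of −0.15, −0.29, 0.31, 0.20 and 0.20, and none of them passed. In other fits JAZ12 passed with the replicate block (1.995, adjusted p = 0.0455) and with DESeq2 (0.0213). JAZ13 passed with DESeq2 (0.045) and JAZ6 without Niyan Wee replicate 2 (0.0429).

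Other called genes had the same low library. PP2C32, a type 2C protein phosphatase, stood at 104, 25.8, 72.3 and 44.1 CPM in Niyan Wee and 17.7, 29.1, 16.4 and 16.6 in Sarali (1.63 ± 0.38, adjusted p = 0.0207), and its call ended without Niyan Wee replicates 1 or 3 or Sarali replicates 1, 3 or 4 (0.0606 to 0.0982). MYB4, a MYB transcription factor, stood at 90.0, 29.4, 62.1 and 66.8 CPM against 35.0, 32.6, 21.1 and 24.2 (1.14 ± 0.276, adjusted p = 0.0279), and ended without Niyan Wee replicates 1, 3 or 4 or Sarali replicates 3 or 4 (0.0567 to 0.117). CIGR2, a GRAS protein induced by a chitin elicitor, stood at 76.3, 15.1, 68.2 and 42.8 CPM against 16.2, 22.1, 10.7 and 11.1 (1.75 ± 0.439, adjusted p = 0.033, 0.0865 with the replicate block), and ended without Niyan Wee replicates 1 or 3 or Sarali replicates 1, 3 or 4 (0.0745 to 0.116). WRKY71, a defence transcription factor, also had replicate 2 lowest, at 78.7, 5.31, 39.3 and 36.6 CPM against 6.47, 13.3, 1.79 and 2.35, and did not pass (adjusted p = 0.101).

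**Figure D5:**
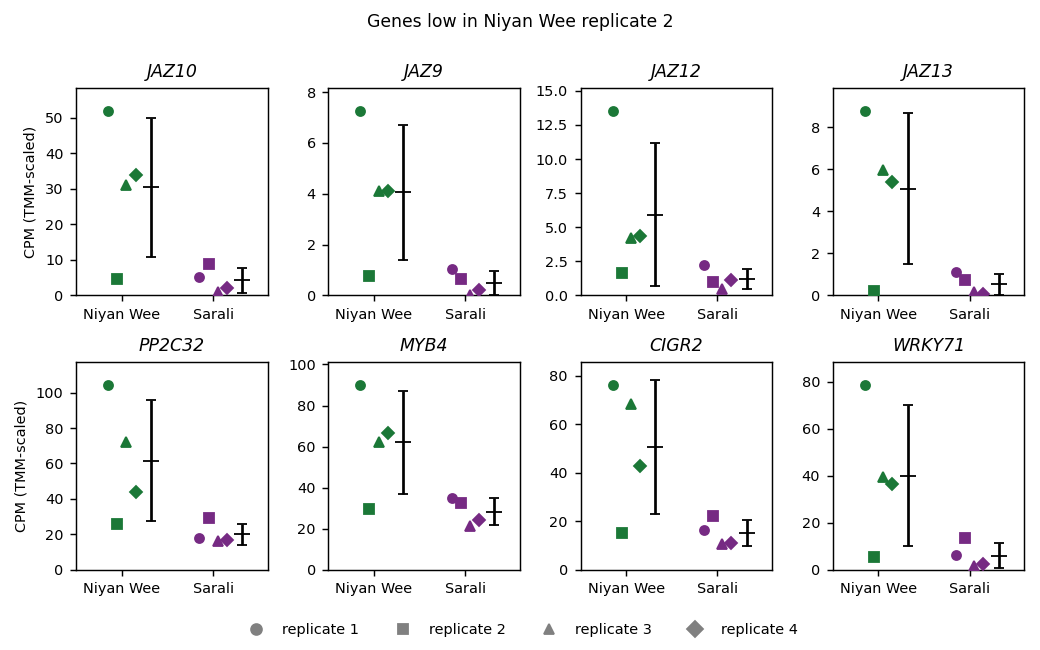
CPM of 8 genes in each library of Niyan Wee and Sarali (symbols mark the replicate), with the mean and SD in black. Replicate 2 of Niyan Wee lies near the Sarali libraries in each panel; JAZ12, JAZ13 and WRKY71 did not pass the test.

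Of 23 gene lists built from gene names, 18 had no called member by edgeR. Over all genes tested, 2.88% were called and 13.8% had an unadjusted p below 0.05, so that no call in a short list is near the share over all genes. DESeq2 called 14 members in 8 of these 18 lists. Of 105 drought and abscisic acid genes, 2 were higher in Niyan Wee, PP2C32 and PP2C30, both type 2C phosphatases, and 20 had an unadjusted p below 0.05. PP2C30 stood at 10.5, 2.07, 7.84 and 2.31 CPM in Niyan Wee and 1.03, 1.03, 1.46 and 0.476 in Sarali (2.52 ± 0.642, adjusted p = 0.0365), and ended without Niyan Wee replicates 1 or 3 or any Sarali library (0.0568 to 0.137). With the ribosomal RNA share in the model the PP2C30 value was 1.52 (adjusted p = 0.402). SAPK6 and SAPK9, kinases of the abscisic acid response, passed in the fit with the replicate block, at 0.69 (0.0444) and −0.84 (0.00531). Without Niyan Wee replicate 2, PP2C02, PP2C34, NAC067 and DREB1H also passed (0.00361 to 0.0405). Of 15 MADS-box genes, MADS25 passed with 5.56 ± 1.79 against 2.20 ± 1.27 CPM (1.35, adjusted p = 0.0367), and ended without Niyan Wee replicates 1 or 3 or Sarali replicates 1, 2 or 4 (0.0846 to 0.139).

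Water channels and nutrient transporters gave no call in the model of all libraries. Of 21 aquaporins 0 passed and 3 had an unadjusted p below 0.05 by edgeR, near the 2.88% and 13.8% of all genes tested. Their median log2 fold change was −0.27, against 0.03 over all genes, with 18 of 21 values below 0. PIP1-2, a plasma membrane aquaporin, had the smallest p of these, at 300, 154, 172 and 273 CPM in Niyan Wee, against 278, 386, 350 and 413 in Sarali (adjusted p = 0.173). Its libraries overlapped. Without Niyan Wee replicate 4, 3 aquaporins were called lower in Niyan Wee, the tonoplast channel gene OsTIP1-1 (−1.95, 0.034), the plasma membrane channel gene PIP2-1 (−1.11, 0.0376) and NIP2-2, which is also on the silicon list (−2.28, 0.0478). Of 8 nitrogen uptake genes, 16 phosphate uptake genes, 22 potassium and sodium transporters, 47 iron and metal genes and 3 silicon transport genes, 0 passed by edgeR, with 1, 1, 2, 7 and 0 at an unadjusted p below 0.05. HAK23, a potassium transporter, at 20.8 CPM in Niyan Wee against 34.4 (adjusted p = 0.105), and ZIP2, a metal transporter, at 35.4 and 62.9 CPM (0.154), had libraries that did not overlap. DESeq2 called HAK23 (0.0425) and PHT1 (0.0294), edgeR on the 8 libraries alone called ZIP2 (0.0229), and single left-out libraries gave calls of MTP4 (without Niyan Wee replicate 4, 0.0302) and PHT1 (without Sarali replicate 1, 0.0475).

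Lists of growth genes also had no member called by edgeR in all libraries. Of 43 cell division genes 0 passed and 10 had an unadjusted p below 0.05, against 2.88% and 13.8% of all genes tested. Of the 43, 39 were above 0, with a median log2 fold change of 0.35, against 0.03 over all genes. DESeq2 called 1, H2B.9 (0.0413). Summed over the 25 dividing root tip markers, the level was 552 to 894 CPM in Niyan Wee and 494 to 613 in Sarali, and its part in other results was not tested. Of 31 expansins, which loosen cell walls, 0 passed and 8 had an unadjusted p below 0.05, and of 67 auxin genes 0 and 7. EXPA8, an alpha expansin, came nearest, at 2.39 CPM in Niyan Wee against 0.576 (adjusted p = 0.0715), and passed without Niyan Wee replicate 4 (0.0377) and with DESeq2 (0.0147). EXLA1 also passed without that library (0.0272), EXPA1 without Sarali replicate 1 (0.0357), and EXPA11 and EXPA12 without Sarali replicate 3 (0.0492 and 0.0434). Of 23 Casparian strip family genes and 29 ribosomal protein genes 0 passed and 0 had an unadjusted p below 0.05. Of 36 heat shock, 10 low oxygen, 7 diterpenoid phytoalexin, 12 defence, 12 ABC transporter, 6 germin-like and 1 xyloglucan enzyme genes, 0 passed, with 3, 1, 2, 5, 1, 1 and 0 at an unadjusted p below 0.05. Without 1 library, edgeR called HSP17.9A (Sarali replicate 2, 0.00606), WRKY71 (Niyan Wee replicate 2, 0.0421) and, of the auxin genes, ARF16 (Niyan Wee replicate 4, 0.0405).

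Among the defence genes the libraries of a cultivar differed widely. Cht1, a chitinase, stood at 2.09, 12.0, 0.828 and 5.69 CPM in Niyan Wee, against 10.6, 123, 153 and 65.0 in Sarali (adjusted p = 0.0951). Sarali replicate 1 lay within the Niyan Wee range and the other 3 far above it. The chitinase mean was 98.6 CPM in Moddai Karuppan.

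Moddai Karuppan was not used in the contrast and lay between the other 2 for most called genes. Its mean fell between those of Niyan Wee and Sarali in 431 of the 611, on a log2 scale with 0.5 CPM added. It was nearer to Niyan Wee in 281 and nearer to Sarali in 330. The 611 were selected for a distance between the other 2, which makes a place between them more likely for any cultivar. The share was not taken for Bala, Azucena or all genes tested, so it cannot be called particular to Moddai Karuppan.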

How the data were processed

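The authors deposited expected counts, 1 value for each gene in each library: per the file headers and the values, 7.58% are not whole, so they were rounded before testing, although raw counts had been assumed when the tests were designed. HISAT2, edgeR 3.36.0 and IRGSP-1.0 stand in the submitters' processing notes without a role. Not given in the sources used here are the counting tool and its strand setting. Per the labels' protocols, libraries came from a stranded total RNA kit with ribosomal RNA removal, although another label names polyA RNA. Of 21237 genes, filterByExpr (minimum count 10) removed 12. Another 2 rows named no gene and held no counts.

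One edgeR 4.0.16 quasi-likelihood model (R 4.3.3, TMM scaling) of all 20 libraries had 1 mean per cultivar. P-values were adjusted by the Benjamini-Hochberg method across the 21225 genes tested, and a gene was called below 0.05. The ± in CPM is an SD over 4 libraries and beside a log2 fold change an SE. Intervals and floors cover counting error only. Names, biotypes and gene order come from a RefSeq table of assembly ASM3414082v1, to which 20839 genes matched. It is not the build of the files, so no coordinates are given. Values of near-identical copies, and of overlapping or antisense genes, are uncertain.

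Both tools were tested on simulated data. edgeR met the bar set beforehand for the share of its calls that were true, with slightly more false calls than the threshold allows. DESeq2 1.42.0, an alternative only, had more and did not meet it. The simulated counts were drawn with edgeR's own estimates of spread. Genes at the lowest levels were given no change, and splits between replicates of a cultivar were not simulated. Of the 611 real calls, 423 averaged under 10 CPM, so the simulation does not settle how many of them are true.

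The rule for naming genes took, among called genes whose libraries did not overlap, the 10 highest and 10 lowest fold changes of named genes with at least 5 CPM in the higher cultivar and the 2 highest and 2 lowest unnamed ones, then the 5 smallest p in each direction at 10 CPM or more, and from each list up to 6 called members or the 2 with the smallest p. Members, lists and rules were chosen with earlier results of these data known. A label tag calls the replicate numbers batches, so a fit with the number as a block was run as an alternative. The reported model has no block. Across 8890 genes, deviations from the cultivar means of libraries with the same number correlated at 0.325, −0.248, 0.127 and −0.166 (replicates 1 to 4), and those of Niyan Wee replicate 2 and Sarali replicate 3 at 0.593.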

Additional observations from a re-analysis of the deposited data

Results flagged for a closer look

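Of 180 groups of 4 libraries examined for a value far from the other 3, 9 were flagged (5%), and chance flags about 1 in 20 groups. In Niyan Wee, the highest library stood apart for SODCC.2 (replicate 4, 121 CPM), CSLC7 (replicate 1, 23.4 CPM), PHT1-1, a phosphate transporter (replicate 1, 44.5 CPM), HAK23 (replicate 1, 25.3 CPM), CAX1b, a calcium exchanger (replicate 2, 4.09 CPM), and RR25 (replicate 1, 0.247 CPM), and the lowest for KSL3, a diterpene synthase (replicate 2, 1.29 CPM). In Sarali, the highest library stood apart for PP2C32 (replicate 2, 29.1 CPM) and the lowest for CIPK24 (replicate 2, 33.3 CPM).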

How the results depend on the processing

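Of the 611 called genes (315 higher, 296 lower in Niyan Wee), the count became 1126 (601 and 525) with DESeq2, which called too many unchanged genes in simulated data, 365 (166 higher) with the 8 libraries alone, 379 (178 higher) in a model with each library's ribosomal RNA share, 269 (118 and 151) in P1 alone, 227 (116 and 111) in P2 alone, and 290 (159 and 131) when 3 libraries, Niyan Wee replicates 2 and 3 with Sarali replicate 3, were left out. Leaving out 1 library gave 412 to 676 called, 177 to 421 higher and 205 to 329 lower. DESeq2 and the model with the ribosomal RNA share used all 20 libraries, and the other fits named so far used fewer. The cause of the changes was not tested. With the replicate block 538 were called, 501 of them among the 611. The block ended the calls given beside it in the text and no other named gene's call. Among members of the lists it added SAPK6, SAPK9 and JAZ12, as given there. RLE scaling (619), no filter (611), the P1 or P2 label as a covariate (621), ribosomal RNA genes removed (617) and thinned counts (478) stayed within 1.5 times. On thinned counts, however, only 431 of the 611 stayed called. Of the 41 called genes with a name, 11 lost their call there and 1 had no value. The ribosomal RNA difference ran from −30.3 to −12.9 points without 1 library. The two-sided permutation test then had 35 arrangements, too few for any difference to pass, so it cannot decide the question there. No called named gene changed direction under any alternative. With the 8 libraries alone, 32 of the 41 called genes with a name lost their call, and with the ribosomal RNA share in the model 28 did. Genes with few counts are limited by depth, most in Sarali replicate 2, with 10185136 counts outside ribosomal RNA.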
